A study of Mus musculus with 6 samples.

Results

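Peroxisome genes were examined in mouse T cell acute lymphoblastic leukemia (T-ALL), a cancer of immature T cells, here driven by Notch. The group holds 31 genes chosen by name, 13 peroxins (Pex genes), 13 lipid enzymes and 5 membrane proteins, out of 19938 genes measured. Each gene was read from the probe set selected on the highest mean intensity, and each of the 31 genes had a single probe set with 1 gene symbol. The group was put together with the treatment results of these arrays known, Phyh's increase among them. The differences between treatments are therefore a description, and the adjusted p-values printed with them show where a gene stands among all genes tested, not independent evidence.

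The leukemias came from blood progenitors that carried a tamoxifen-activated Cre recombinase (Cre-ER) and a loxP-flanked Zfx allele (Zfx fl/y), transduced with Notch-IC, the active intracellular part of Notch, by retrovirus. Zfx encodes a zinc finger transcription factor. There were 3 independent lines, 14843, 14844 and 14846, each grown in sublethally irradiated secondary recipients and sorted as GFP-positive cells. Each line gave 1 array from a recipient given Vehicle, labelled ZFX flox, and 1 from a recipient given Tamoxifen by gavage, 5 mg a day for 3 days, labelled ZFX null. Treatment began on day 10 after transplant and cells were taken 48 h after the last dose. Both groups carry Notch-IC, Cre-ER and the loxP-flanked allele. No group received Tamoxifen without Cre or without that allele, so drug, Cre activity and loss of Zfx cannot be told apart. The sources used here do not state the age of the mice or the promoter that drives Cre-ER.

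Peroxisomes are small organelles that import folded enzymes after these are made in the cytosol. Pex5 is the receptor for most of this cargo and Pex7 for a smaller class, Pex13 and Pex14 dock the loaded receptor, and a ubiquitin ligase that includes Pex2 and Pex10 marks it for recycling. The ATPase Pex6, tethered to the membrane by Pex26, then pulls the receptor out, while Pex3, Pex16 and Pex19 place membrane proteins and the Pex11 proteins help the organelle divide. Inside, alpha-oxidation shortens branched fatty acids such as phytanic acid, beta-oxidation shortens very long and branched chains, and Gnpat, Agps and Far1 start the synthesis of ether lipids. In the thymus, ether lipids made by peroxisomes are known as self antigens of natural killer T cells.

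All values are log2 of RMA intensities, a level that has no read depth and cannot be compared between genes, since probes differ in brightness. The 6 arrays correlated at 0.991 to 0.996 over all probe sets. The Zfx probe set lay at 10.87 ± 0.14 in Vehicle and 10.94 ± 0.06 in Tamoxifen arrays (SD, n = 3 each), and since the position of its probes relative to the deleted part is unknown here, it does not check the labels. Of 17 T cell markers, 15 were measured and all 15 lay above the filter on dim genes, a mean log2 intensity of 6.70. Passing the filter does not by itself show cell type. The filter was also passed by 7 of 10 neutrophil, 7 of 10 stromal, 5 of 9 B cell and 4 of 6 erythroid markers. Tamoxifen minus Vehicle differences were below 0 for 11 and above 0 for 4 of the 15 T cell markers. Of these 15, 0 were called and 2 had an unadjusted limma p under 0.05. Of all 13956 genes tested, 3328 had one. Rag2 differed by -0.75 ± 0.16, lower in each line, with an adjusted p of 0.0566. Ptcra differed by -0.27 ± 0.08 (SE, 3 pairs). Markers of hepatocytes, which are rich in peroxisomes, had 3 of 9 above the filter, with Alb at 5.81 ± 0.02 and 5.87 ± 0.06 (SD, n = 3 each), and their summed intensity was 981.3 to 1011 in Vehicle and 988.2 to 1060 in Tamoxifen arrays. Of 9 macrophage and monocyte markers 4 were above the filter, and their summed intensity was 1928 to 2132 in Vehicle and 2227 to 2419 in Tamoxifen arrays, so it was higher in all 3 Tamoxifen arrays. Of the 4, Ctss differed by 0.63 ± 0.22, Itgam by 0.29 ± 0.09, Lyz2 by 0.24 ± 0.08 and Cd68 by -0.09 ± 0.08 (SE, 3 pairs), and 0 were called, while 3 had an unadjusted limma p under 0.05. Below the filter lay the defining macrophage markers Csf1r and Adgre1, at 6.34 ± 0.04 and 6.34 ± 0.01 for Csf1r in Vehicle and Tamoxifen arrays (SD, n = 3 each), and at 5.99 to 6.01 in Vehicle and 6.02 to 6.12 in Tamoxifen arrays for Adgre1, which was higher in each line. Fcgr1, Mpeg1 and Cd14 also lay below the filter. Fcgr1 was higher in each line, by 0.004, 0.06 and 0.09, while the signs of Mpeg1 and Cd14 varied between lines. The part of macrophage RNA in the differences given here was not tested. In bulk cells, fewer cells that express a gene and less RNA per cell cannot be told apart.

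Of the 31 genes, 6 passed the treatment test in the fit over all genes. Pex5, Pex6 and Gnpat fell, while Phyh, Hacl1 and Pxmp2 rose. The test was limma with the line as a block, at a Benjamini-Hochberg adjusted p under 0.05. Pecr was too dim to be tested, which leaves 6 of 30. Among all 13956 genes tested, 6.23% were called, 4.93% lower and 1.3% higher. For 12 of the 31 genes, Pecr included, Vehicle and Tamoxifen values were fully separated, against 23.7% of all genes tested. These counts are given beside the background only, since the genes were chosen with this comparison in view. Within-line differences had the same sign in all 3 lines for 18 of the 31 genes, or 58.1%, against 48.8% of all genes tested.

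**Figure D1:**
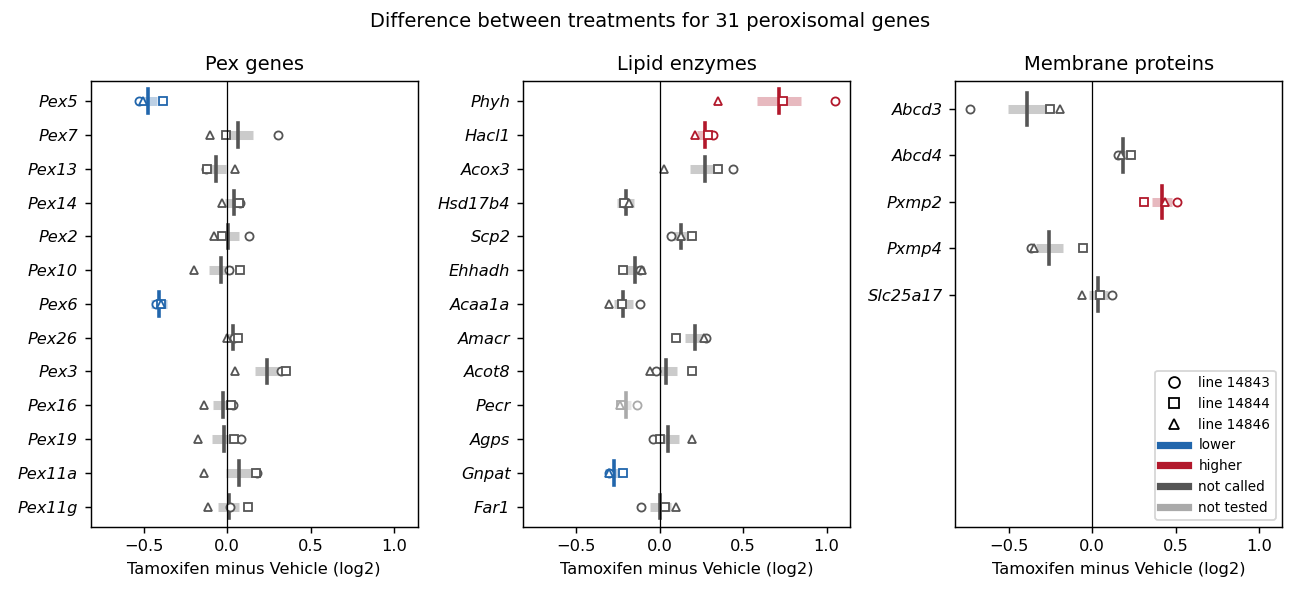
Tamoxifen minus Vehicle difference in log2 intensity for the 31 genes, by class. Open symbols are the 3 lines, the vertical mark is the fitted difference, and the shaded bar is ± 1 SE. The SE is moderated except for Pecr, which was not tested. Most Pex genes lie near 0, Pex5 and Pex6 lie at -0.47 and -0.41, and Phyh lies at 0.71.

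The Pex genes and the lipid enzymes had medians near 0 and different widths. The median difference was 0.01 over the 13 Pex genes, 0.04 over the 13 lipid enzymes and 0.04 over the 5 membrane proteins, against 0.03 over all genes tested. Without regard to sign, the median size was 0.04 for the Pex genes, 0.20 for the lipid enzymes and 0.26 for the membrane proteins, against 0.09 over all genes tested. Of the Pex genes 2 were called, both lower, and of the 12 lipid enzymes tested 1 was called lower and 2 higher. Separated values occurred for 2 of 13 Pex genes, 6 of 13 lipid enzymes and 4 of 5 membrane proteins. Without the untested Pecr it was 5 of 12 lipid enzymes, and the share over all genes tested was 23.7%. All 3 lines shared a sign for 4 of 13 Pex genes, 10 of 13 lipid enzymes and 4 of 5 membrane proteins. These were 30.8%, 76.9% and 80%, against 48.8% of all genes tested. The contrast between classes was not tested, since the genes of each class are not replicates. Leaving Pex11a and Pex11g, which act in division, out of the Pex genes gave a median of -0.02 and a median size of 0.04.

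**Figure D2:**
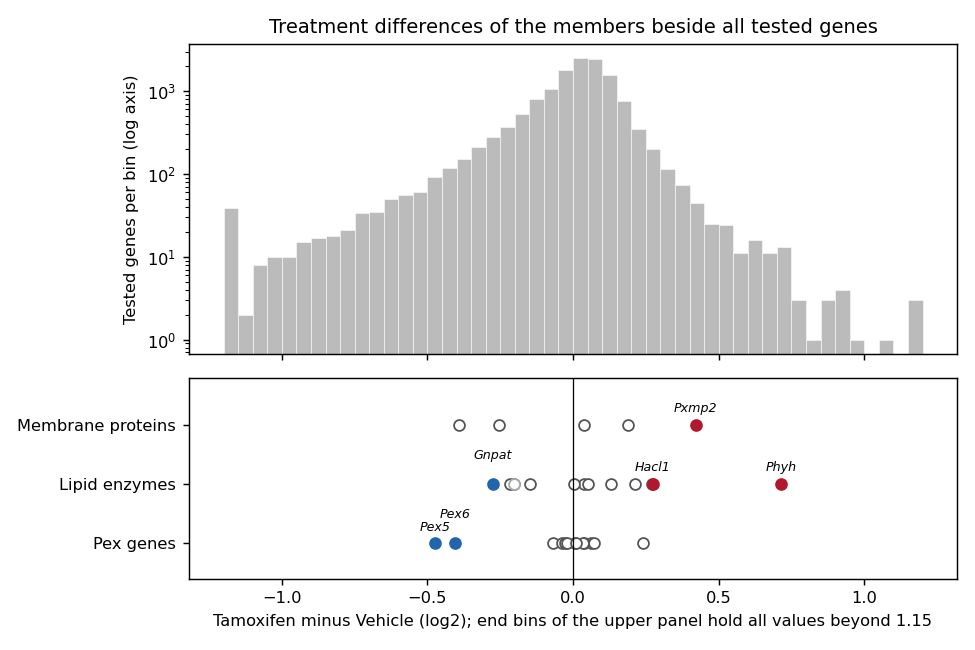
Upper panel, number of tested genes per bin of 0.05 log2 units of the Tamoxifen minus Vehicle difference, on a log axis, with the extreme bins holding all values beyond them. Lower panel, the 31 genes by class on the same axis, filled where called lower (blue) or higher (red). The Pex genes other than Pex5, Pex6 and Pex3 lie between -0.07 and 0.07.

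Pex5, the cargo receptor, was lower in every Tamoxifen array. Its level was 8.92, 8.88 and 9.02 in Vehicle arrays and 8.38, 8.50 and 8.51 in Tamoxifen arrays of lines 14843, 14844 and 14846. All Tamoxifen arrays thus lay below all Vehicle arrays. Pex5 fell by 0.47 ± 0.06 (SE, 3 pairs), or 1.39-fold (limma adjusted p = 0.014). The second receptor, Pex7, which reads the less common amino-terminal signal, differed by 0.06 ± 0.09, with a 95% interval from -0.16 to 0.29, and by 0.30, -0.01 and -0.11 within the lines. The difference of Pex7 between treatments was thus smaller than its spread between lines.

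Pex6, the ATPase that recycles the receptor, was also lower in every Tamoxifen array and differed little between the lines. Its level was 9.78, 9.77 and 9.70 in Vehicle arrays and 9.35, 9.38 and 9.31 in Tamoxifen arrays, in the same order of lines. The groups did not overlap, and the within-line differences were -0.43, -0.40 and -0.39. Pex6 fell by 0.41 ± 0.05 (SE, 3 pairs), or 1.33-fold (limma adjusted p = 0.0148). Pex26, the membrane anchor of Pex6, differed by 0.03 ± 0.05, with a 95% interval from -0.09 to 0.16. Without line as a block Pex5 and Pex6 were also called, whereas without line 14844 neither was, at adjusted p-values of 0.083 and 0.114 from 2 pairs. Over all genes tested, the fit without line 14844 called 79 lower and 4 higher, against 688 and 182 with all lines.

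The other parts of the import machinery showed no called difference. The docking proteins Pex13 and Pex14 differed by -0.07 ± 0.06 and 0.04 ± 0.05 (SE, 3 pairs). The ligase subunits Pex2 and Pex10 differed by 0.01 ± 0.06 and -0.04 ± 0.07. Across these 4 genes the 95% intervals ran from -0.22 to 0.17, so differences of the size seen for Pex5 and Pex6 lie outside them. Signs differed between lines for each of the 4.

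Among the genes that place membrane proteins, Pex3, the docking factor in the membrane, had the largest value without a call. Its level was 10.18, 10.05 and 10.43 in Vehicle arrays and 10.51, 10.40 and 10.48 in Tamoxifen arrays. The Vehicle array of line 14846 lay above the Tamoxifen array of line 14844, so the groups overlapped. Pex3 differed by 0.24 ± 0.08 (SE, 3 pairs), with an adjusted p of 0.139. Pex19, the carrier that brings membrane proteins to Pex3, and Pex16 differed by -0.02 ± 0.07 and -0.03 ± 0.06, with 95% intervals within -0.19 to 0.15. The division factors Pex11a and Pex11g differed by 0.07 ± 0.08 and 0.01 ± 0.06.

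Line 14846 gave lower differences for the Pex genes than the other lines did. The median over the 13 genes was 0.04 in lines 14843 and 14844 and -0.12 in line 14846. In line 14846 the difference was below 0 for 10 of 13 Pex genes, against 3 and 5 in lines 14843 and 14844. The same share over all genes tested was 44.6% in line 14846, 45.5% in line 14843 and 43.4% in line 14844. The pattern was not particular to the Pex genes, since 15 of 17 mitochondrial beta-oxidation genes were below 0 in line 14846, against 6 and 8 in lines 14843 and 14844, and 32 of 57 other peroxisomal genes, against 22 and 23. Each line has 1 array per treatment, so a difference between lines in the response to treatment has no replicate and was not tested. Of the 3 Vehicle arrays, that of line 14846 had the highest level for 10 of the 13 Pex genes, against 35.1% of all genes tested, the exceptions being Pex13, Pex6 and Pex26. The within-line differences of line 14846 subtract this same array.

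Phyh, the hydroxylase that begins alpha-oxidation of phytanic acid, had the largest difference of the 31 genes. Its level was 8.58, 8.92 and 9.35 in Vehicle arrays and 9.64, 9.66 and 9.70 in Tamoxifen arrays of lines 14843, 14844 and 14846. Vehicle arrays thus spread over 0.77 log2 units and Tamoxifen arrays over 0.06, and the groups did not overlap. The within-line differences were 1.05, 0.74 and 0.35, with the smallest in the line whose Vehicle level was highest. With the Tamoxifen levels so close together, that order follows from the Vehicle levels, 1 array per line. Of the 4 macrophage and monocyte markers above the filter, Ctss had within-line differences of 1.25, 0.63 and -0.01 in lines 14843, 14844 and 14846. Those of Itgam were 0.28, 0.53 and 0.08, of Lyz2 0.39, 0.07 and 0.27, and of Cd68 -0.22, -0.19 and 0.13. The part of macrophage RNA in the difference of Phyh was not tested. Phyh rose by 0.71 ± 0.13 (SE, 3 pairs), or 1.64-fold. Its increase was known when the genes were chosen, so its call only describes where it stands among all genes tested.

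Hacl1, the lyase that follows Phyh in alpha-oxidation, rose as well, by less. Its level was 9.02, 9.10 and 9.19 in Vehicle arrays and 9.34, 9.39 and 9.41 in Tamoxifen arrays. The groups did not overlap, and the within-line differences were 0.32, 0.29 and 0.21. Hacl1 rose by 0.27 ± 0.05 (SE, 3 pairs), or 1.21-fold (limma adjusted p = 0.0453). Both alpha-oxidation genes therefore had their lowest within-line difference in line 14846. Neither was called without line as a block. Hacl1 was also not called with any line left out, at adjusted p-values of 0.0694 to 0.225, and Phyh was not called without line 14843 or line 14844.

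**Figure D3:**
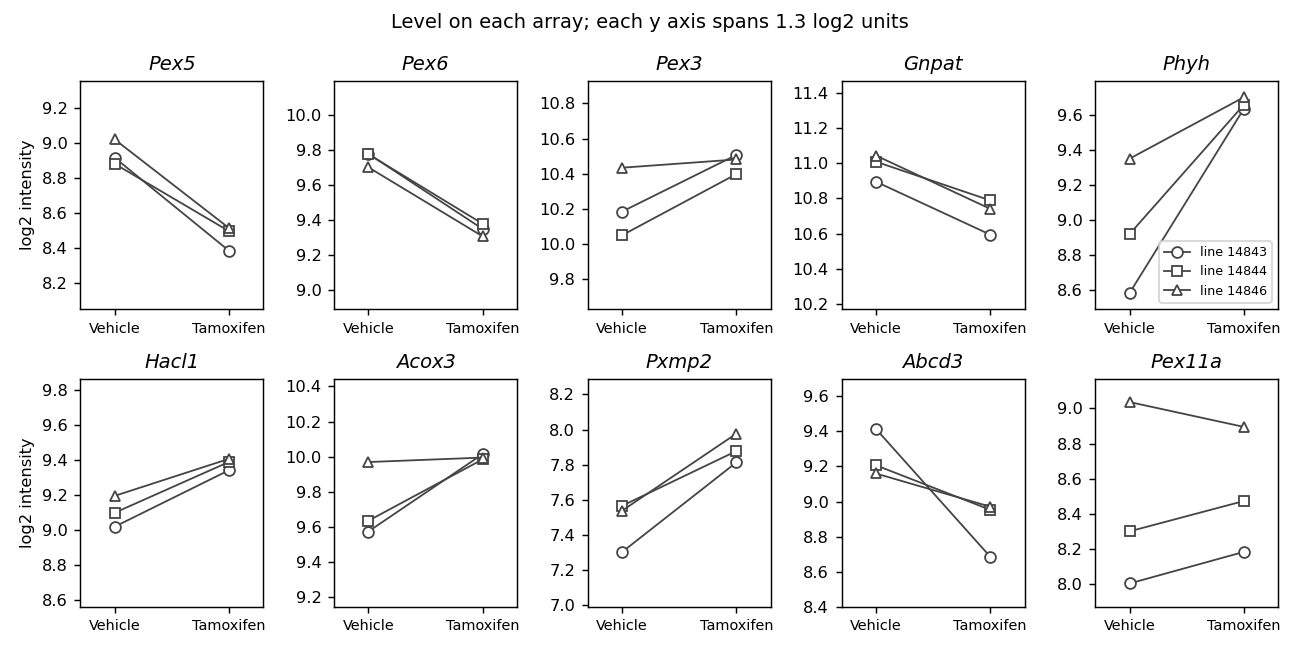
Log2 intensity on each array for 10 of the genes, with a line joining the Vehicle and Tamoxifen arrays of 1 leukemia. Each panel spans the same number of log2 units. For Phyh and Acox3 the Vehicle arrays differ between lines and the Tamoxifen arrays lie close together, while for Pex11a the lines stay apart under both treatments.

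Of 7 beta-oxidation genes 0 were called by limma, while 5 had an unadjusted p under 0.05, with differences of both signs. The share with such a p over all genes tested was 3328 of 13956. Acox3, an oxidase of the first step for branched chains, lay at 9.57, 9.63 and 9.97 in Vehicle arrays and at 10.01, 9.98 and 9.99 in Tamoxifen arrays. The Tamoxifen arrays lay above the Vehicle arrays, but by 0.03 in line 14846 against 0.44 and 0.35 in lines 14843 and 14844. Acox3 differed by 0.27 ± 0.09 (SE, 3 pairs), with an adjusted p of 0.154, and without line 14846 it was 0.40 and was called, at an adjusted p of 0.0427. Acox3 is shown by array because its values drew attention once seen. Amacr, the racemase that readies branched chains, and Scp2, a thiolase and lipid carrier, were higher in each line, with fitted differences of 0.21 ± 0.06 and 0.13 ± 0.05 and adjusted p-values of 0.109 and 0.22.

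Several genes of the later steps had lower values in each line without a call. Hsd17b4, which carries out the hydration and dehydrogenation of branched and very long chains, differed by -0.20 ± 0.05 (SE, 3 pairs), with within-line differences of -0.22, -0.21 and -0.18 and an adjusted p of 0.0786. Ehhadh, the bifunctional enzyme for straight chains, differed by -0.15 ± 0.05, and Acaa1a, the thiolase of the last step, by -0.22 ± 0.06, with adjusted p-values of 0.182 and 0.101. Acaa1a has a near-identical copy, Acaa1b, whose probe set lay below the filter, and the probes of the pair may read both. Acot8, a thioesterase that releases the products, differed by 0.04 ± 0.07 with signs that varied between lines. Pecr, a reductase of chain elongation, was below the filter at 6.37 ± 0.07 in Vehicle and 6.17 ± 0.03 in Tamoxifen arrays (SD, n = 3 each), and its groups did not overlap.

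In ether lipid synthesis the first enzyme fell and the others showed no called difference. Gnpat, the acyltransferase that starts the pathway, lay at 10.90, 11.01 and 11.05 in Vehicle arrays and at 10.59, 10.79 and 10.74 in Tamoxifen arrays. The groups did not overlap, with within-line differences of -0.30, -0.22 and -0.30. Gnpat fell by 0.28 ± 0.05 (SE, 3 pairs), or 1.21-fold (limma adjusted p = 0.0423). Agps, which acts next, and Far1, which supplies the fatty alcohol, differed by 0.05 ± 0.07 and 0.00 ± 0.06, with 95% intervals from -0.11 to 0.21 and from -0.15 to 0.16. Gnpat was not called without line as a block, at an adjusted p of 0.135, nor with any line left out, at 0.103 to 0.17.

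The membrane proteins had the largest median size of difference of the 3 classes, while the lipid enzymes spanned the widest range. Pxmp2, a channel of the peroxisomal membrane, lay at 7.30, 7.57 and 7.54 in Vehicle arrays and at 7.81, 7.88 and 7.98 in Tamoxifen arrays. The groups did not overlap, and the within-line differences were 0.51, 0.31 and 0.44. Pxmp2 rose by 0.42 ± 0.06 (SE, 3 pairs), or 1.34-fold (limma adjusted p = 0.022). Pxmp2 was not called without line as a block, at 0.0768, nor with any line left out, at 0.0542 to 0.0947.

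Abcd3, a transporter of branched and very long chain acyl-CoAs and the most used marker of peroxisomal membrane, lay at 9.41, 9.21 and 9.16 in Vehicle arrays and at 8.69, 8.95 and 8.97 in Tamoxifen arrays. The groups did not overlap, but the difference was -0.73 in line 14843 against -0.25 and -0.19 in the other lines. The fitted difference was -0.39 ± 0.11 (SE, 3 pairs), close in size to that of Pex6 with a larger SE, and the adjusted p was 0.118. Pxmp4 lay at 11.60, 11.33 and 11.38 in Vehicle arrays and at 11.23, 11.28 and 11.03 in Tamoxifen arrays. It was lower in each line, by 0.37, 0.05 and 0.35 in lines 14843, 14844 and 14846, with a fitted difference of -0.26 ± 0.08 and an adjusted p of 0.131. Abcd4, a relative of Abcd3 that acts in lysosomal cobalamin export, differed by 0.19 ± 0.05, with non-overlapping groups and an adjusted p of 0.102. Slc25a17, a carrier of CoA and other cofactors, differed by 0.04 ± 0.06.

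Promoter sequence is shown for called genes because Zfx binds DNA, and AGGCCT, the core of the motif reported for Zfx, was searched in it. RefSeq windows (build GRCm38.p6) of 250 bases before to 50 after a transcription start were matched by symbol for 25 of the 31 genes, in 29 windows. Pex2, Pex19, Hsd17b4, Amacr, Abcd4 and Pxmp2 were unmatched. The letters read the same on both strands. They occurred in a window of 5 of the 25 genes, or 20%, against 11.6% of the 27025 genes with a window. The 5 were Pex5, Pex14, Pex11a, Scp2 and Pecr, so of the called genes with a window Pex5 held it and Pex6, Gnpat, Phyh and Hacl1 did not. Pex5 had several windows, not all with a match, and the matches lay at positions -74 and -239 of different starts. Pex6, Gnpat, Phyh and Hacl1 had a single window each. A match is not evidence of binding, and no match says only that these letters are not in the window. Stretches just before the start that lie outside other RefSeq genes are printed 5′ to 3′, with AGGCCT in capitals where it occurs. For Pex5, too few bases just before the start lay outside RefSeq genes. Only 30 bases around its match at position -74 are therefore shown, and these may lie in a gene. None are shown for Gnpat, whose upstream stretch lies in a neighbouring gene.

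Pex5, chr6:124415912-124415941, minus strand: gggacgtacgtcAGGCCTttctagaaccag
Pex6, chr17:46711326-46711475, plus strand: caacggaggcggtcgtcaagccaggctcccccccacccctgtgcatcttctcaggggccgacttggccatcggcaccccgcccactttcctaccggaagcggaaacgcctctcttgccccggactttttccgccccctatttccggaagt
Phyh, chr2:4918846-4918995, plus strand: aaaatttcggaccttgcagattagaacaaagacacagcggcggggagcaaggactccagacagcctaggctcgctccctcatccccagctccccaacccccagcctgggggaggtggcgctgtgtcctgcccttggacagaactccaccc
Hacl1, chr14:31640966-31641056, minus strand: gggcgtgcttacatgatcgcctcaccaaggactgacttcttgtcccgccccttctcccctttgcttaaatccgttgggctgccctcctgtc

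Differences between the leukemias, which played no part in choosing the genes, were tested with limma's F test on line. Pex11a, a factor of peroxisome division, was the 1 gene of 30 called at an adjusted p under 0.05, against 3.11% of all genes tested. Its level was 8.0025 and 8.18 in line 14843, 8.30 and 8.47 in line 14844, and 9.04 and 8.89 in line 14846, in Vehicle and Tamoxifen arrays. Line 14846 thus lay above the other lines under both treatments, and the lines spanned 0.87 log2 units, with an adjusted p of 0.0257. The call was lost without line 14844, at 0.0524, and without line 14846, at 0.124. Without adjustment, 6 of the 30 genes had a p under 0.05, namely Pex11a, Pex7, Hsd17b4, Scp2, Ehhadh and Amacr. Over all genes tested 2688 of 13956 had one. Both counts among the 30 genes, with and without adjustment, thus lie close to the share over all genes tested.

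The levels of the 3 lines lay closer together in Tamoxifen than in Vehicle arrays for 24 of the 31 genes, or 77.4%, against 62.0% of all genes tested. This held for 12 of 13 Pex genes, 8 of 13 lipid enzymes and 4 of 5 membrane proteins, and the difference from all genes was not tested. The share was 76.5% for 17 mitochondrial beta-oxidation genes and 52.6% for 57 other peroxisomal genes. The range over lines went from 0.77 in Vehicle to 0.06 in Tamoxifen arrays for Phyh, from 0.40 to 0.03 for Acox3 and from 0.67 to 0.26 for Pex7. Pex11a had the widest range of the 31 genes under both treatments, 1.03 in Vehicle and 0.71 in Tamoxifen arrays.

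**Figure D4:**
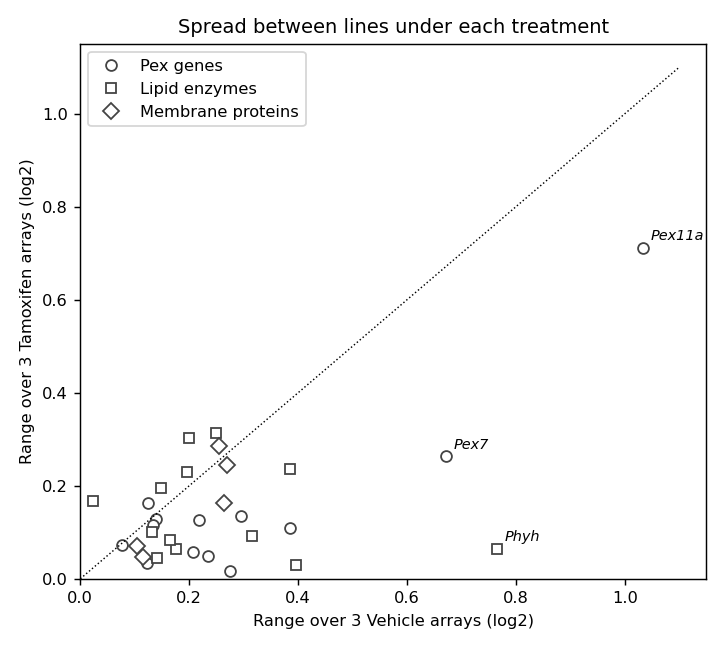
Range of log2 intensity over the 3 Vehicle arrays (x axis) and the 3 Tamoxifen arrays (y axis), 1 point per gene, with the dotted line at equality. Points of 24 of the 31 genes lie below the line, and Pex11a has the largest range on both axes.

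Other peroxisomal genes, listed by function, held larger decreases than the 31 genes did. Of 70 such genes 57 were measured and 40 tested, and 5 of these fell and 2 rose, or 17.5% against 6.23% of all genes tested. The lists were drawn up with earlier results of these data known, so this share is a description, not independent evidence. Ech1, an isomerase for unsaturated chains, fell in each line, by 0.67, 0.54 and 0.76, with a fitted difference of -0.66 ± 0.06 (SE, 3 pairs), or 1.58-fold, and an adjusted p of 0.00874. Eci2, another isomerase for unsaturated chains, fell by 0.69, 0.47 and 0.84, with a fitted difference of -0.67 ± 0.08, or 1.59-fold, and an adjusted p of 0.015. Both enzymes also occur in mitochondria. Without line 14844 their adjusted p-values were 0.0585 and 0.0586.

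The other called genes of these lists have roles shared with other compartments. Mlycd, the malonyl-CoA decarboxylase, fell with a fitted difference of -0.56 ± 0.11 (SE, 3 pairs), the superoxide dismutase Sod1 with -0.38 ± 0.05, and Mff, which recruits the division dynamin to mitochondria and peroxisomes, with -0.29 ± 0.06. Their adjusted p-values were 0.0456, 0.0193 and 0.0484. Acsl4, a ligase that activates long fatty acids, rose by 0.40 ± 0.05 and the cytosolic and peroxisomal isocitrate dehydrogenase Idh1 by 0.35 ± 0.07, with adjusted p-values of 0.0195 and 0.0423. Mff was not called with any line left out, and the other 4 lost it without line 14843 or 14844, at adjusted p-values of 0.0546 to 0.209. Without line as a block Mff, Mlycd, Acsl4 and Idh1 were not called, at 0.104 to 0.338. Among genes picked after their values were seen, the catalase gene Cat differed by 0.17 ± 0.05 with an adjusted p of 0.145, and Dnm1l, the dynamin recruited by Mff, by -0.25 ± 0.07 with an adjusted p of 0.114.

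**Figure D5:**
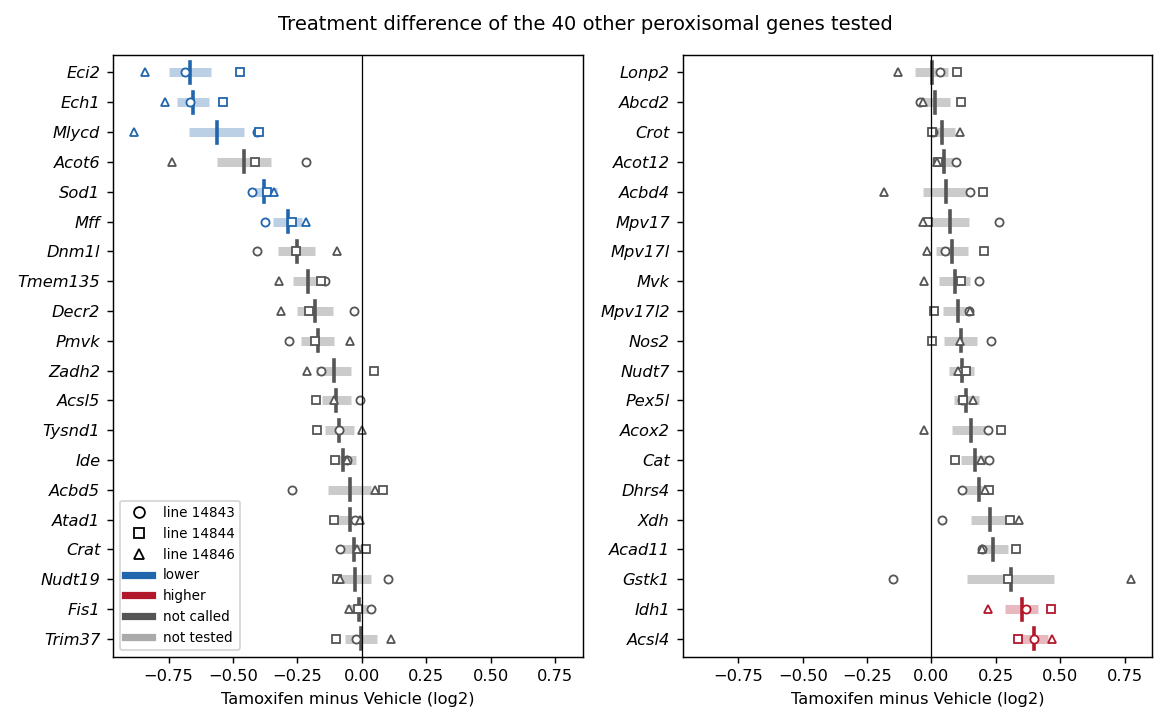
Tamoxifen minus Vehicle difference in log2 intensity for the 40 other peroxisomal genes tested, sorted by the fitted difference. Open symbols are the 3 lines and the shaded bar is ± 1 SE. Eci2 and Ech1 have the lowest fitted differences, -0.67 and -0.66, and Acsl4 the highest, 0.40.

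Regulators and neighbouring pathways gave 1 call. The nuclear receptors and coactivators that drive peroxisomal genes in liver had 4 of 8 members above the filter and 0 called, while 1 had an unadjusted limma p under 0.05. Rxrb, a retinoid X receptor, had the largest value, -0.18 ± 0.05 (SE, 3 pairs). Rxrg, below the filter and not tested, had means of 5.98 in Vehicle and 6.08 in Tamoxifen arrays, with a difference of 0.10. Ppara, also picked after its values were seen, lay at 6.90 to 6.97, near the filter, with a difference of -0.02 ± 0.05. Of 6 tested targets of these receptors, the lipid droplet protein Plin2 fell, at -0.41 ± 0.08 with an adjusted p of 0.0456, and was not called with any line left out, at 0.0885 to 0.116, or without line as a block, at 0.179. Of 17 mitochondrial beta-oxidation genes 0 were called and 4 had an unadjusted p under 0.05, with a median difference of -0.04. Acadvl and Cpt2, which handle long chains there, had the largest values, -0.32 ± 0.07 and -0.31 ± 0.08, with adjusted p-values of 0.0682 and 0.0842. Over all genes tested, 3328 of 13956 had an unadjusted limma p under 0.05.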

How the data were processed

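Total RNA, 200 ng a sample, was hybridised to 6 Affymetrix arrays, per the labels' protocols. The authors deposited linear intensities per probe set. The submitters' processing notes name RMA and Affymetrix Expression Console 1.1. RMA equalises the distribution of intensities over arrays, so a difference in overall signal is removed.

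The log2 of each intensity was taken. Of 35556 probe sets, 21789 carried 1 gene symbol in the platform annotation, and the one with the highest mean was kept per gene. Genes with a mean below the 30th percentile of 19938 genes were not tested. The 13956 others were fitted with limma 3.58.1 in R 4.3.3, with line and treatment as terms, two-sided p-values and Benjamini-Hochberg adjustment over all genes. The fit had 2 residual degrees of freedom plus 3.47 from moderation. It was also run on data simulated from the same model, which cannot show how well that model holds for these arrays. The SE printed with a difference is the moderated SE of the fit to the real arrays, not the SE of the 3 within-line differences. Line pairs the arrays by design, and deviations from group means correlated at 0.637 to 0.682 within lines. Recipients of 1 line share their leukemia.

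Members and gene lists were chosen with earlier results of these data known. Values in every array are given for called genes, Phyh and the 3 genes of each class with the largest difference, and other lists are named by their called genes or their 2 largest values. Acox3, Cat, Dnm1l and Ppara were added after their values were seen. Alternatives covered the block, the filter, scaling, moderation, an offset of 16, the probe set rule and each line left out.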

Additional observations from a re-analysis of the deposited data

Results flagged for a closer look

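Within-line differences of opposite sign, each at least 0.1 in size, occurred for 3 of the 31 genes, Pex7, Pex11a and Pex11g. The largest minus the smallest within-line difference was 0.408 for Pex7, 0.322 for Pex11a and 0.241 for Pex11g on the log2 scale. In each of the 3 genes line 14846 had the lowest value. With 1 pair of arrays per line, the difference between lines was not tested.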

How the results depend on the processing

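Pex5 and Pex6 were called lower under all 8 settings that kept the 3 lines, and 0 to 2 genes were called lower with a line left out (0 without line 14844). Without line as a replicate block 0 genes were called higher against 3 with it, and 2 lower. Over all genes tested, 275 were called lower and 20 higher without the block, against 688 and 182 with it. With a line left out, 0 to 2 of the peroxisome genes were called higher and 0 to 1 differed between lines. Over all genes tested, 424, 79 and 503 were called lower and 69, 4 and 168 higher without lines 14843, 14844 and 14846. The median difference of the lipid enzymes was then 0.0665 without line 14843, -0.00916 without line 14844 and -0.0185 without line 14846, against 0.0381 with all lines. Fits on 2 lines have 1 residual degree of freedom. Of 438 single-gene values under alternatives, 389 were unchanged, 48 lost a call, 1 gained one and 0 reversed. Only genes called in the main fit could lose a call, and most of the genes counted were not called there. Unchanged means the same side of the threshold. For Pecr, untested in the main fit, it means a move below the SD of its within-line differences. With all lines and the block, Phyh was not called without the filter on dim genes, nor were Mlycd (adjusted p 0.0604) and Plin2 (0.0564). Calls were also lost by Hacl1 after centring arrays (0.0523) or with trend and robust moderation (0.0713), and by Gnpat (0.0574), Mff (0.0559) and Plin2 (0.0582) after a second quantile normalization. With the filter at the 50th percentile Pxmp2 was not tested. The line test could not be fitted without the line terms. The number of arrays limits precision.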
